A study of Mus musculus with 36 samples.

Results

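The microRNAs (miRNAs) of wild-type mouse CD4 T cells were compared between 7 and 14 days of culture under T helper 2 (Th2) polarization. The libraries were chosen by their titles, which name wild-type Th2 cells at 7 or 14 days, and were 7 of the 36 of the series, 4 at day 7 and 3 at day 14. CD4+ TCRb+ T cells had been sorted from the spleens of C57BL/6J mice by flow cytometry, and naive cells were activated and driven towards the Th2 fate. All 7 libraries came from animals of genotype WT, which the series text calls littermates of mice lacking AGO1, AGO3 and AGO4 (AGO134KO). Naive WT cells, harvested at day 0, and AGO134KO Th2 cells of the same strain, 4 libraries at day 7 and 3 at day 14, were used for reference. Sex, age, cytokines, restimulation between the times and whether a culture gave cells at both times are not given here by the labels or the series text. The labels do not say that libraries of a group came from separate animals, so p-values measure only the spread between these libraries, which may be technical.

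The 7 libraries held 215215 to 273724 miRNA counts at day 7 and 254369 to 265008 at day 14. Levels are given as CPM, counts per 1000000 miRNA counts after TMM normalisation (a scaling of library sizes that assumes most miRNAs keep their level), in the order of the library numbers. A count of 0 allows up to 3 counts, or 9.04 to 12.5 CPM at day 7 and 10.4 to 11.4 CPM at day 14. Over the 268 miRNAs at 100 CPM or more, libraries of different days lay 0.852 to 1.07 apart (root mean square difference of log2 CPM, 12 pairs). Libraries of the same day lay 0.205 to 0.425 apart at day 7 (6 pairs) and 0.325 to 0.341 apart at day 14 (3 pairs), so the 2 days were separated by more than any pair of replicates. Of the 6 T cell marker miRNAs, all were tested, and their summed level was 52338 to 55618 CPM at day 7 and 44312 to 46582 CPM at day 14. No messenger RNA was measured, so the Th2 identity of the cells could not be checked here.

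A miRNA hairpin is cut by Drosha and Dicer into a duplex, 1 arm of which is kept by an Argonaute protein and guides it to messenger RNAs, mainly through the seed, bases 2 to 8 of the miRNA. miRNAs with the same seed are expected to share many targets, whereas hairpins close together in the genome are often cut from a common transcript. In helper T cells miRNAs set the threshold of antigen receptor signalling, the pace of division and the choice between effector fates, and miR-155 and the miR-24 and miR-27 families are known to act on Th2 cytokine production.

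The sequences on which the comparison turned are given here from RefSeq (GRCm38.p6), 5′ to 3′, with the seed in capitals, and 306 of the 382 miRNAs tested had an entry there. The first set shows the 3 guide strands of a locus on chromosome 17 that rose together, with the paralogs of 2 of them from other loci and the related miR-10 pair.
miR-99b-5p: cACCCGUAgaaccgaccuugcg
miR-99a-5p: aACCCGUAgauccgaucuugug
miR-125a-5p: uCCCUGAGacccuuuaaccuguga
miR-125b-5p: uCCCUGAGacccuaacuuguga
let-7e-5p: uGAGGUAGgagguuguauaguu
let-7a-5p: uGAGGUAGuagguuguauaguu
miR-10a-5p: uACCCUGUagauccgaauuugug
miR-10b-5p: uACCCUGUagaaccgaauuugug
The second set shows families in which members with 1 seed had unlike changes, that is the families of miR-148 and miR-152, of miR-130, of miR-92 and of miR-15 and miR-16.
miR-152-3p: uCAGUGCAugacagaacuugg
miR-148a-3p: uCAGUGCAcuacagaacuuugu
miR-148b-3p: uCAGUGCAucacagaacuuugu
miR-130a-3p: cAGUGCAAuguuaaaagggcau
miR-130b-3p: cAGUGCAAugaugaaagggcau
miR-92b-3p: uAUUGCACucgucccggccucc
miR-92a-3p: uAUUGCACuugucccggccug
miR-363-3p: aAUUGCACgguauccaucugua
miR-15b-5p: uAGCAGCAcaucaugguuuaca
miR-16-5p: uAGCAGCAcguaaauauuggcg
miR-195a-5p: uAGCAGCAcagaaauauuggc
The third set shows the miR-181 family, whose 4 guides share a seed and fell together, and other abundant miRNAs with a large or well replicated change.
miR-181a-5p: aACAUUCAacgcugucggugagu
miR-181b-5p: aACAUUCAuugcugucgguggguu
miR-181c-5p: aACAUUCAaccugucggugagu
miR-181d-5p: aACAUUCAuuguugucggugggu
miR-139-5p: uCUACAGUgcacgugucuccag
miR-22-3p: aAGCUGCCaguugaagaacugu
miR-155-5p: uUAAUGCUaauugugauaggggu
miR-182-5p: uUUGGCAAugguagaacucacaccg
miR-96-5p: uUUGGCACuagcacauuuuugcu
miR-183-5p: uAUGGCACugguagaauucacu
Some of these differ by few bases. miR-10b-5p differs from miR-10a-5p by U12A and let-7a-5p from let-7e-5p by G9U, counted from 1 at the 5′ end, the base of miR-10a-5p or let-7e-5p given first. How the authors' counting assigned reads of such near-identical members is not stated in the files or labels, and their separate values are uncertain.

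From day 7 to day 14, 96 of the 382 miRNAs tested rose and 95 fell at an edgeR adjusted p under 0.05, that is 25.1% and 24.9% of those tested, or 50% in all. The median log2 change of all 382 was -0.03, and the middle of the distribution, from the lower to the upper quartile, ran from -0.58 to 0.50. Of the 191 that changed, 92 did so by 2-fold or more (47 higher, 45 lower), and 20 rose and 8 fell by more than 4-fold. In 176 of the 191 (91 higher, 85 lower) no day 14 library overlapped the day 7 libraries. Among all 382 tested, 201 miRNAs (52.6%) did not overlap, 101 with day 14 higher (26.4%) and 100 with day 14 lower (26.2%). The miRNAs that rose held 26.3% of the summed CPM at day 7 and 40.5% at day 14, and those that fell held 23.9% and 12.4%. These are shares of the miRNA pool of bulk cultures, in which fewer cells of a type and less RNA per cell cannot be told apart. With library size as the scaling the split was 75 higher and 113 lower and the median log2 change -0.17, and with scaling to the entries named STD it was 52 and 89 with a median of -0.22. Every change below is relative to the other miRNAs. The plot of change against level shows that the rises and falls included rare and abundant miRNAs alike.

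**Figure D1:**
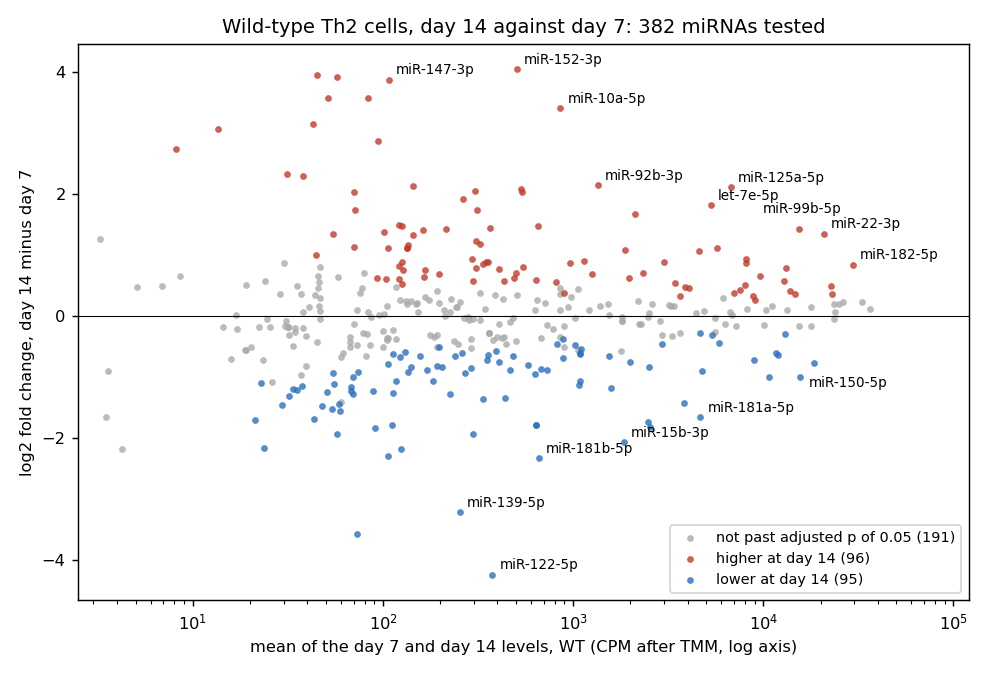
Each point is a miRNA tested, with its mean level over both days in wild-type Th2 cells (CPM, log axis) against its log2 change from day 7 to day 14. Colours mark the 96 miRNAs that rose, the 95 that fell and those that did not pass (edgeR adjusted p under 0.05), and the named points reach from -4.24 for miR-122-5p to 4.05 for miR-152-3p.

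The 3 hairpins of miR-99b, let-7e and miR-125a lie within chromosome 17, 17830194 to 17830879, plus strand, in the gene Spaca6. All 5 of their tested arms rose, by a log2 change of 1.43 to 2.12. miR-125a-5p (MIMAT0000135), known for stabilising the regulatory T cell programme, stood at 2593, 2573, 2425 and 2507 CPM at day 7 and 10386, 11400.2 and 11067 CPM at day 14. Each day 14 library was above every day 7 library, and the mean rise was 4.34-fold (log2 change 2.12, SE 0.14, edgeR adjusted p = 4.61e-13). let-7e-5p (MIMAT0000524), a member of the let-7 family of differentiation-linked miRNAs, stood at 2275, 2512, 2000.2 and 2559.9 CPM and then at 8064, 8122 and 8605 CPM. Its days did not overlap either, with a 3.54-fold rise (log2 change 1.82, SE 0.20, edgeR adjusted p = 1.82e-08). miR-99b-5p (MIMAT0000132), of a family known to act on mTOR, was the most abundant of the locus, at 8796, 8393, 7465 and 8658 CPM and then 21004, 24665 and 21634 CPM. It rose 2.69-fold with no overlap (log2 change 1.43, SE 0.17, edgeR adjusted p = 3.32e-08). The passenger arms moved alike, miR-125a-3p from 119 ± 7.62 to 492 ± 54.4 CPM (SD, n = 4 and 3; log2 change 2.05) and miR-99b-3p from 62.4 ± 23.2 to 180.2 ± 35.8 CPM (1.49).

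Of the paralogs of miR-99b and miR-125a on other chromosomes, the rare miR-99a-5p and miR-125b-5p fell, and those of let-7e did not pass. The related miR-100-5p was too rare to test, with 25 counts over the day 7 libraries and 22 over those of day 14. On chromosome X, miR-351-5p, which shares the seed of miR-125a-5p, rose (log2 change 0.55), though not with STD scaling (edgeR adjusted p = 0.227). miR-99a-5p, which has the seed ACCCGUA of miR-99b-5p and differs from it at 4 positions, stood at 154, 83.1, 84.3 and 71.2 CPM and then at 41.7, 26.5 and 81.6 CPM. Library 3 of day 14 lay within the day 7 range (log2 change -0.92, SE 0.32, edgeR adjusted p = 0.0167). miR-125b-5p, which has the seed CCCUGAG of miR-125a-5p and differs at 7 positions, stood at 96.0, 47.9, 27.1 and 31.0 CPM and then at 27.8, 18.9 and 14.2 CPM, with overlap (log2 change -1.21, SE 0.42, edgeR adjusted p = 0.0167). Both calls rested on single libraries. That of miR-99a-5p ended without day 7 library 1 (edgeR adjusted p = 0.0837), day 14 library 1 (0.0637) or day 14 library 2 (0.112), and that of miR-125b-5p without day 7 library 1 (0.107), day 14 library 2 (0.0504) or day 14 library 3 (0.0853). Of the wider let-7 family, let-7e-5p alone of 10 guides passed, beside a median log2 change of 0.11 for the family. The abundant let-7a-5p (log2 change 0.20), let-7f-5p (0.23) and let-7g-5p (-0.16) did not pass. With the compared groups alone let-7f-5p passed as higher (edgeR adjusted p = 0.0467). With the DESeq2 Wald test 2 guides were higher, at a family median of 0.22. The family median turned negative with library size (-0.03) and STD scaling (-0.08), and 3 and 2 guides were then lower, let-7g-5p among them both times (edgeR adjusted p = 0.0174 and 0.0163).

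Members of the miR-10 and of the miR-148 and miR-152 families gave some of the steepest rises. miR-152-3p (MIMAT0000162; chromosome 11, 96850439 to 96850459, plus strand), in an intron of Copz2 and known to target the DNA methyltransferase Dnmt1, stood at 16.7, 70.3, 78.3 and 55.7 CPM at day 7 and 968, 868 and 1033 CPM at day 14. The naive libraries held 0, 1, 2 and 1 counts of it. Day 7 library 1 was the lowest of its group, no day 14 library came near the day 7 range, and the rise was 16.5-fold (log2 change 4.05, SE 0.28, edgeR adjusted p = 8.37e-13). Its passenger arm miR-152-5p was too rare to test, with 0 counts over the day 7 libraries and 30 over those of day 14. miR-148a-3p, which shares the seed CAGUGCA and is known from repeatedly stimulated Th1 cells, stood at 5699, 5238, 5582 and 5847 CPM and then at 10646, 10528 and 10829.6 CPM. It rose 1.91-fold without overlap (log2 change 0.93, SE 0.14, edgeR adjusted p = 2.84e-06), as did miR-148a-5p (log2 change 1.34). The third member, miR-148b-3p, went from 5489 ± 416 to 6739 ± 562 CPM and did not pass (log2 change 0.30, SE 0.14, edgeR adjusted p = 0.0755). It passed as higher with the DESeq2 Wald test (adjusted p = 0.00245) or DESeq2 size factors (edgeR adjusted p = 0.00812). The same held with the compared groups alone (edgeR adjusted p = 0.0252) or without day 14 library 1 (0.0409).

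The guide miR-10a-5p (chromosome 11, 96317186 to 96317208, plus strand), which lies in the Hoxb cluster and is known to limit the plasticity of regulatory and follicular helper T cells, stood at 167, 134.2, 136 and 151.7 CPM at day 7 and 1559, 1603 and 1515 CPM at day 14. The days did not overlap, with a 10.6-fold rise (log2 change 3.41, SE 0.29, edgeR adjusted p = 1.17e-10), and the day 14 level was above the 515 ± 337 CPM (SD, n = 4) of naive cells. miR-10b-5p (chromosome 2, 74726074 to 74726096, plus strand, in introns of Hoxd3 and Hoxd4) stood at 8.35, 9.59, 9.04 and 6.19 CPM and then at 48.6, 60.6 and 124 CPM (log2 change 3.15, SE 0.52, edgeR adjusted p = 1.04e-05). No day 7 library held more than 3 counts of miR-10b-5p, so its day 7 level was at or under the limit of a count of 0. In the list of the miR-10, miR-99, miR-100 and miR-125 families, 6 of 8 tested members rose and 2 fell, with a median log2 change of 1.77. The shares over all miRNAs tested were 25.1% and 24.9%. miR-130a-3p, linked to angiogenesis and to blood progenitors, stood at 87.7, 95.9, 108 and 145 CPM and then 358, 371 and 532 CPM (log2 change 1.92, SE 0.21, edgeR adjusted p = 2.04e-08). Its groups did not overlap, whereas the seed relatives miR-130b-3p (-0.27) and miR-301a-3p (-0.68) fell. The call of miR-130b-3p ended, with an edgeR adjusted p = 0.249 with DESeq2 size factors, 0.103 with STD scaling, and 0.0542 to 0.121 without day 7 library 1, 2 or 4 or day 14 library 2 or 3. miR-92b-3p, from its own locus on chromosome 3, stood at 447, 473, 488 and 573 CPM and then at 1968, 2319 and 2331 CPM. It rose 4.44-fold without overlap (log2 change 2.15, SE 0.16, edgeR adjusted p = 4.91e-12), while miR-363-3p, which has the same seed AUUGCAC and is far more abundant, fell from 14548 ± 459 to 9412 ± 1355 CPM (SD, n = 4 and 3; log2 change -0.63, SE 0.12, edgeR adjusted p = 1.05e-04).

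**Figure D2:**
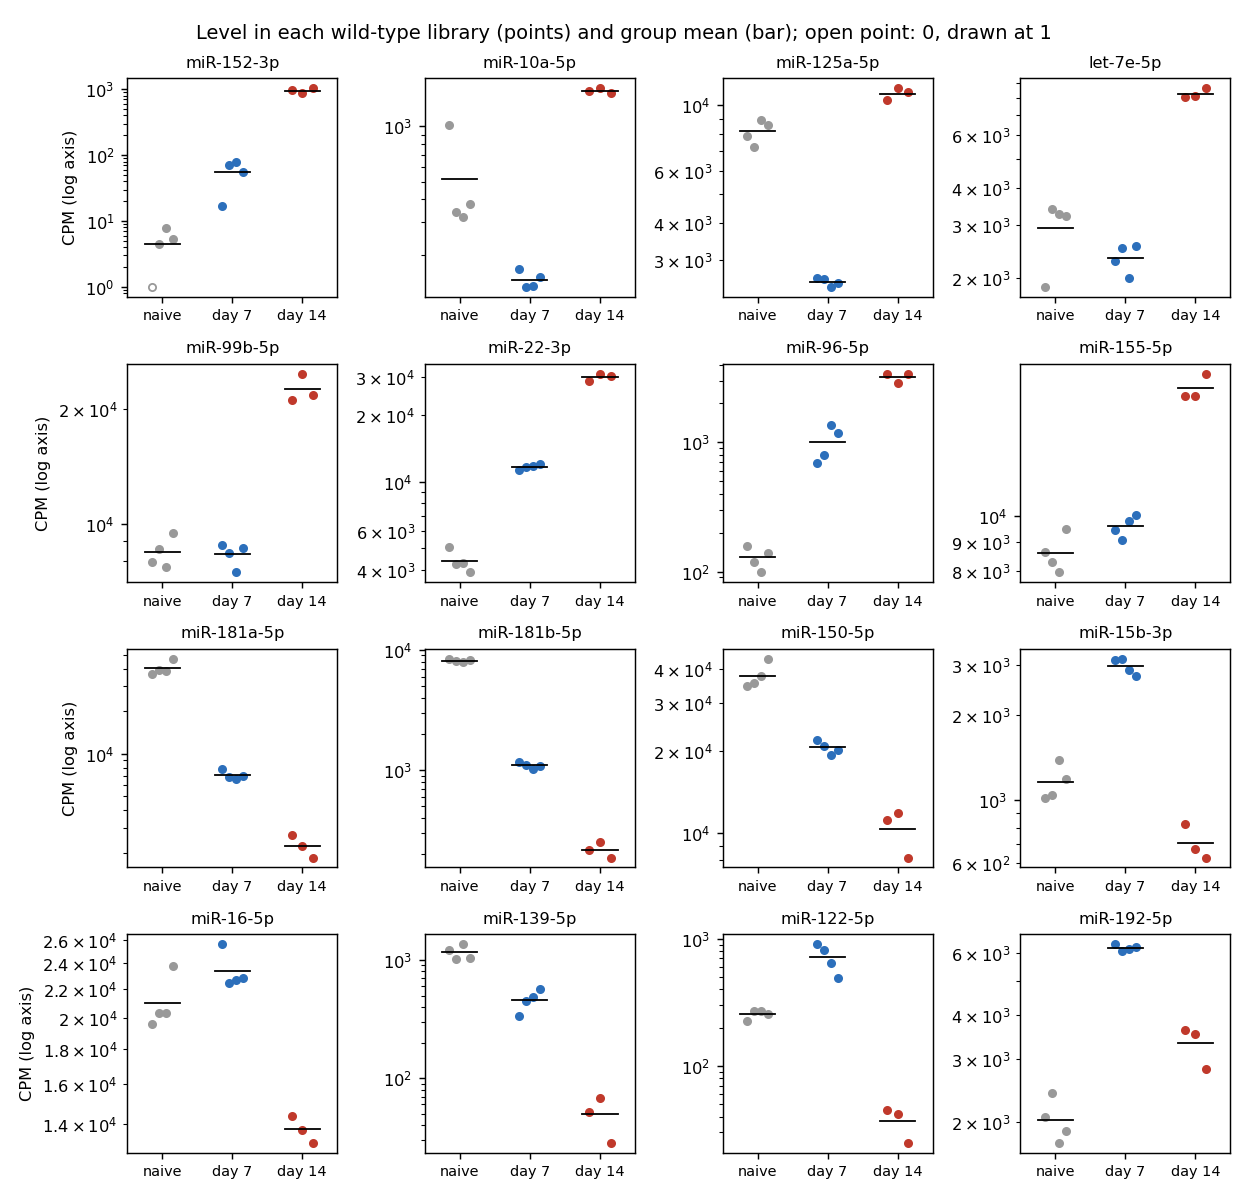
Level of selected miRNAs (CPM, log axis) in each naive WT, day 7 and day 14 wild-type library, with the group mean as a bar and a value of 0 as an open point drawn at 1. miR-152-3p and miR-10a-5p have all 3 day 14 points above all 4 day 7 points, and miR-181a-5p and miR-139-5p have them below.

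Of 20 tested miRNAs listed as induced by T cell activation, 7 rose, 5 fell and 8 did not pass, beside 25.1% and 24.9% of all miRNAs tested. The median log2 change of the list was 0.13, and it was -0.02 with library size and -0.06 with STD scaling. The count of falls went to 2 without day 14 library 2 and to 3 without day 7 library 3. The miR-183, miR-96 and miR-182 hairpins, clustered on chromosome 6 (30165918 to 30169737, minus strand), had 5 of 5 tested arms higher. miR-182-5p, which is induced by interleukin 2 and targets Foxo1, stood at 24447, 20560.2, 19846 and 19854 CPM at day 7 and 35750.2, 39188 and 39121 CPM at day 14. Day 7 library 1 was the highest of its group and still below every day 14 library (log2 change 0.84, SE 0.12, edgeR adjusted p = 1.82e-06). miR-96-5p stood at 689, 793, 1356 and 1173 CPM and then 3398, 2865 and 3364 CPM, also without overlap (log2 change 1.67, SE 0.19, edgeR adjusted p = 2.37e-08). miR-183-5p, at 21220.2, 19298, 15667 and 19442 CPM and then 24444, 27568 and 28227 CPM, had the smallest rise of the cluster (log2 change 0.50, SE 0.14, edgeR adjusted p = 0.00295). That call ended with STD scaling. The passenger arms miR-183-3p (log2 change 2.03) and miR-96-3p (1.75) also rose.

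miR-155-5p (MIMAT0000165; chromosome 16, 84714143 to 84714165, plus strand), in an exon of Mir155hg and known to restrain Socs1 and to support Th2 responses, stood at 9464, 9089.5, 9799 and 10038 CPM at day 7 and 16211, 16168 and 17696 CPM at day 14. The days did not overlap (log2 change 0.80, SE 0.13, edgeR adjusted p = 1.04e-05). The other arm, miR-155-3p, stood at 16.7, 12.8, 3.01 and 9.29 CPM and then at 66.0, 22.7 and 67.4 CPM, a larger log2 change on few counts (log2 change 2.33, SE 0.49, edgeR adjusted p = 2.60e-04). miR-22-3p, made from an exon of Mir22hg, stood at 11247, 11672, 11781 and 12088 CPM and then at 28482, 30892 and 30179 CPM. It was among the most abundant miRNAs to rise, 2.55-fold without overlap (log2 change 1.35, SE 0.14, edgeR adjusted p = 3.35e-09), and its arm miR-22-5p rose as well (log2 change 1.48). miR-146b-5p, a paralog of the NF-kB feedback miRNA miR-146a, went from 344 ± 31.1 to 966 ± 64.5 CPM (log2 change 1.49, SE 0.17, edgeR adjusted p = 2.23e-08), whereas the more abundant miR-146a-5p did not pass (6512 ± 782 and 6842 ± 286 CPM, log2 change 0.07). miR-34a-5p, induced by p53, went from 143 ± 35.0 to 484 ± 194 CPM (log2 change 1.74, SE 0.25, edgeR adjusted p = 1.55e-06). miR-31-5p, which acts on interleukin 2 production, went from 195 ± 39.8 to 534 ± 23.5 CPM (log2 change 1.44, SE 0.15, edgeR adjusted p = 6.23e-09). Of the cluster of miR-132 and miR-212, which the transcription factor CREB induces, miR-212-5p (1196 ± 147 to 2553 ± 139 CPM, log2 change 1.09) and miR-132-5p (0.88) rose, while miR-132-3p (0.44) and miR-212-3p (0.07) did not pass.

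The miR-23, miR-27 and miR-24 clusters, known to restrain Th2 cytokine production, had 8 of 11 members higher, 0 lower and 3 that did not pass, with a median log2 change of 0.38. Among all miRNAs tested, 25.1% rose and 24.9% fell. The 8 went to 4 with library size, with no filter on low counts or without day 14 library 2, and to 5 without day 7 library 4. miR-24-3p went from 12811 ± 789 to 16429.5 ± 1307 CPM (log2 change 0.36, SE 0.13, edgeR adjusted p = 0.0205) and miR-27a-3p from 6129 ± 747 to 7966 ± 493 CPM (log2 change 0.38, SE 0.12, edgeR adjusted p = 0.0104), and both calls ended with library size or STD scaling. That of miR-24-3p also ended without day 7 library 2, 3 or 4 or day 14 library 2 (edgeR adjusted p = 0.0572 to 0.0717). miR-23b-3p (0.43) rose, though not with STD scaling or without day 14 library 2 (edgeR adjusted p = 0.0613), and miR-27b-3p (0.20) did not pass. miR-23b-5p, in an intron of 2010111I01Rik, stood at 4.17, 9.59, 6.02 and 9.29 CPM and then at 48.6, 106 and 131 CPM (log2 change 3.57, SE 0.46, edgeR adjusted p = 1.92e-07). No day 7 library held more than 3 counts of it, so its day 7 level was at or under the limit of a count of 0. The arms miR-27b-5p (1.18) and miR-23a-5p (0.93) rose too. With STD scaling 2 members of the clusters passed, both higher.

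Some of the steepest rises were of miRNAs close to the limit of a count of 0 at day 7. miR-147-3p, an arm of a miRNA that Toll-like receptors induce in macrophages, stood at 0, 6.39, 27.1 and 15.5 CPM at day 7 and 139, 182 and 284 CPM at day 14 (log2 change 3.88, SE 0.45, edgeR adjusted p = 8.32e-08). The other arm, miR-147-5p, in an exon of AA467197, stood at 16.7, 3.20, 36.1 and 31.0 CPM and then at 146, 155 and 199 CPM (log2 change 2.87, SE 0.38, edgeR adjusted p = 2.95e-07), so that both arms were above the day 7 range in all 3 day 14 libraries. miR-672-5p, in an intron of Nexmif on chromosome X, stood at 0, 3.20, 3.01 and 18.6 CPM and then at 34.7, 75.8 and 213 CPM (log2 change 3.92, SE 0.65, edgeR adjusted p = 2.68e-05). Its day 14 libraries differed by several fold among themselves. miR-12184-5p (4.88 ± 2.82 to 84.8 ± 31.1 CPM, log2 change 3.95), miR-1948-3p (12.5 ± 6.82 to 155 ± 67.4 CPM, 3.58) and miR-7059-5p (12.3 ± 4.77 to 63.5 ± 6.48 CPM, 2.30) completed the 12 largest rises among called miRNAs at 50 CPM or more on 1 of the days.

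Among the miRNAs that fell, the miR-181 family, which tunes the strength of T cell receptor signalling, fell in all 4 guides. miR-181a-5p (MIMAT0000210, encoded on chromosomes 1 and 2) stood at 7840.2, 6852, 6600.1 and 6999 CPM at day 7 and 2652, 2244 and 1849 CPM at day 14. The days did not overlap, and the level fell 3.14-fold (log2 change -1.65, SE 0.18, edgeR adjusted p = 1.46e-08). miR-181b-5p stood at 1177, 1096, 1027 and 1086 CPM and then at 215, 254 and 188 CPM, a 5.00-fold fall (log2 change -2.32, SE 0.15, edgeR adjusted p = 4.08e-13). miR-181c-5p (log2 change -1.35) and miR-181d-5p (-1.33), from a separate cluster on chromosome 8, fell as well, as did miR-181a-1-3p (-1.78) and miR-181c-3p (-1.06). Of the 8 listed members that were tested 6 fell and 0 rose, with a median log2 change of -1.50, beside 24.9% and 25.1% of all miRNAs tested. The rare arm miR-181d-3p, tested but not on the list, did not pass (0.02). Naive cells had 40149.7 ± 4485 CPM of miR-181a-5p and 8167 ± 216 CPM of miR-181b-5p (SD, n = 4), so the day 14 levels were the lowest of the 3 stages.

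miR-150-5p (MIMAT0000160), a miRNA of resting lymphocytes that targets Myb, stood at 21929.9, 20899, 19415 and 20216 CPM at day 7 and 11149.6, 11885 and 8144 CPM at day 14. It fell 1.98-fold without overlap (log2 change -0.99, SE 0.17, edgeR adjusted p = 1.38e-05), against 37795 ± 3976 CPM in naive cells, and its arm miR-150-3p fell from 5568 ± 527 to 2075 ± 635 CPM (log2 change -1.42). miR-139-5p (chromosome 7, 101475382 to 101475403, plus strand), in an intron of the phosphodiesterase gene Pde2a, stood at 334, 451, 482 and 563 CPM and then at 52.1, 68.2 and 28.4 CPM. All day 14 libraries were far below the day 7 range, a 9.23-fold fall (log2 change -3.21, SE 0.25, edgeR adjusted p = 1.47e-11), and miR-139-3p fell too (-2.16). miR-342-3p, in an intron of Evl, fell from 6717 ± 521 to 4946 ± 822 CPM (log2 change -0.44, SE 0.13, edgeR adjusted p = 0.00437), a call that ended without day 14 library 3 (0.0795). Of the 18 listed miRNAs that T cell activation is known to lower, 6 fell, 2 rose (miR-29c-3p, 1.17, and miR-328-3p, 0.38) and 10 did not pass, with a median log2 change of -0.16. Of all miRNAs tested 24.9% fell and 25.1% rose. The rise of miR-328-3p did not pass with library size or STD scaling or without day 7 library 3 (edgeR adjusted p = 0.0987) or 4 (0.131) or day 14 library 2 (0.0581).

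The miR-15 and miR-16 hairpins, which restrict division and target Bcl2 and cell cycle genes, are encoded as pairs in an intron of Dleu2 (chromosome 14, 61631880 to 61632096, minus strand) and in an intron of Smc4 (chromosome 3, 69009772 to 69009996, plus strand). Every tested arm of both pairs fell. miR-16-5p, made from both loci, stood at 25583, 22484, 22665 and 22856 CPM at day 7 and 14360.5, 13739 and 13136 CPM at day 14, without overlap (log2 change -0.77, SE 0.10, edgeR adjusted p = 3.69e-07). miR-15b-5p stood at 16712, 15047, 12700.2 and 12570.4 CPM and then at 7828, 6621 and 7012 CPM, also without overlap (log2 change -0.99, SE 0.12, edgeR adjusted p = 1.11e-07). Its passenger arm miR-15b-3p, at 3114, 3148, 2886 and 2739 CPM and then 823, 675 and 628 CPM, fell too (log2 change -2.07, SE 0.20, edgeR adjusted p = 2.15e-09). From the Dleu2 pair, miR-15a-5p changed by -0.94 and miR-15a-3p by -2.29 on the log2 scale. The 2 specific passenger arms of miR-16, miR-16-1-3p (-1.19) of the Dleu2 pair and miR-16-2-3p (-0.86) of the Smc4 pair, fell too. The libraries of miR-16-1-3p overlapped, and its call ended without day 7 library 4 (edgeR adjusted p = 0.0831) or day 14 library 2 (0.0909) or 3 (0.137). miR-195a-5p, with the seed AGCAGCA of miR-16-5p, rose from 29.3 ± 8.26 to 59.2 ± 14.6 CPM (log2 change 1.01, SE 0.35, edgeR adjusted p = 0.0189). The rise of this rare relative did not pass with library size (edgeR adjusted p = 0.0502) or STD scaling (0.111), or without day 14 library 2 (0.126) or day 7 library 3 (0.0805).

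The clusters of miR-17-92 and its paralogs, which promote division and survival of activated T cells, had 10 of 18 listed and tested members lower, 2 higher and 6 that did not pass, with a median log2 change of -0.53. Over all miRNAs tested, 24.9% fell and 25.1% rose. The 10 falls went to 7 with DESeq2, with its size factors or without day 14 library 2. They went to 8 with STD scaling and to 11 with library size. Tested arms of the chromosome X paralog that the list leaves out were miR-363-5p, which fell (-0.45), and miR-18b-3p, which did not pass (0.20). miR-18a-5p fell from 2486 ± 234 to 1480.1 ± 77.1 CPM (log2 change -0.75, SE 0.13, edgeR adjusted p = 2.50e-05) and miR-106b-5p, in an intron of Mcm7, from 1476 ± 209 to 705 ± 98.7 CPM (log2 change -1.07, SE 0.19, edgeR adjusted p = 3.89e-05). miR-18b-5p (-1.27), miR-20b-5p (-0.88) and miR-363-3p (-0.63) of the chromosome X paralog fell as well. miR-17-5p (-0.50) and miR-92a-3p (-0.57) did not pass. The former passed as lower with no filter (edgeR adjusted p = 0.0358) or a replicate block (0.0460). It also passed without day 7 library 1 (0.0456) or day 14 library 3 (0.0176). With no filter (0.00507), the compared groups alone (0.0283) or STD scaling (0.0357), miR-92a-3p passed as lower. The 2 members that rose were the passenger arms miR-18a-3p (0.57) and miR-25-5p (0.65). Both rises ended with STD scaling (edgeR adjusted p = 0.259 and 0.231), and that of miR-25-5p also with library size (0.0638). Of the listed miR-30 family members 4 of 9 fell, among them miR-30c-5p (11049 ± 1228 to 6726 ± 1135 CPM, log2 change -0.72). The count was 3 with DESeq2, with its size factors, with STD scaling or without day 14 library 1, 2 or 3. Of the miR-29 family 2 of 6 rose, beside 25.1% of all miRNAs tested, both from the chromosome 1 locus, miR-29b-2-5p (2.04) and miR-29c-3p. miR-455-3p, in an intron of Col27a1, fell from 473 ± 79.0 to 123 ± 4.33 CPM (log2 change -1.93, SE 0.26, edgeR adjusted p = 4.10e-07). miR-5121, annotated inside an exon of the ribosomal protein gene Rpl13a, fell from 3965 ± 159 to 1133 ± 295 CPM (log2 change -1.81, SE 0.22, edgeR adjusted p = 9.56e-08). miR-874-3p (-2.17) and miR-219a-5p (-1.94) were also among the 12 largest falls by the same limit.

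**Figure D3:**
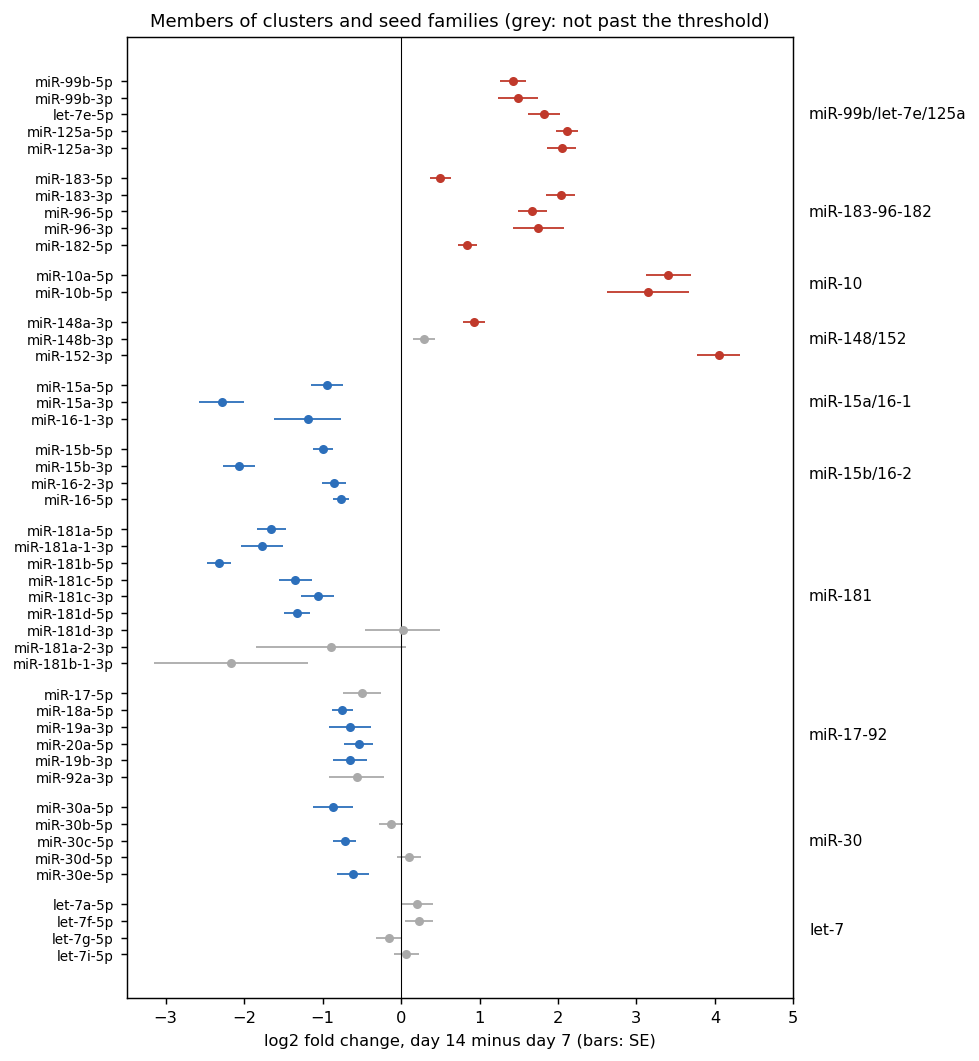
Log2 change from day 7 to day 14 of selected members of loci and families, with every tested arm of miR-181,, 1 point for each miRNA arm with its SE as a bar, coloured where past an edgeR adjusted p of 0.05 and grey where not. The 5 arms of the miR-99b, let-7e and miR-125a locus and the 5 of the miR-183, miR-96 and miR-182 locus lie above 0, and the miR-15a/16-1 and miR-15b/16-2 members shown lie below 0, as do the 6 miR-181 arms that passed.

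The changed miRNAs were grouped by locus and by seed. Hairpins on 1 strand no more than 10 kb apart formed 25 clusters with 2 or more tested hairpins, and in 16 of them 2 or more arms had changed. The cluster counts left out miRNAs with several loci, such as miR-16-5p, and those without a RefSeq entry. The Sfmbt2 intron cluster was not among the 25 clusters. In 13 of these 16 clusters all changed arms went 1 way, and the 3 with both directions were those of miR-17-92, of miR-106b, miR-93 and miR-25, and of miR-322 and miR-503. In the first and second of these the rises were those of miR-18a-3p and miR-25-5p, which ended with STD scaling. In the last, miR-351-5p (0.55) and miR-322-3p (0.89) rose and miR-450b-5p (-0.91) fell. The call of miR-351-5p also ended with STD scaling (edgeR adjusted p = 0.227). Of the 34 seeds carried by 2 or more tested miRNAs with a RefSeq entry, 18 had 2 or more changed members. In 12 of these 18 the changed members went 1 way and in 6 both ways, among them the seeds of miR-99, miR-125, miR-15/16, miR-130 and miR-92 given above. The 2 counts share miRNAs and were not tested against each other. Arms of a cluster can share a transcript and near-identical seeds can share reads, so neither count is of independent units.

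Other families had few changed members. The Sfmbt2 intron cluster, a large rodent array of near-identical hairpins that can share reads, had 22 of 25 members tested, of which 1 rose, 4 fell and 17 did not pass. Beside this, 25.1% of all miRNAs tested rose and 24.9% fell. Those that fell were miR-297a-5p (log2 change -1.10), miR-669b-5p (-0.99), miR-467c-5p (-0.61) and miR-466g (-0.59), and miR-467b-5p (0.58) rose. The calls of miR-297a-5p, miR-669b-5p, miR-467c-5p and miR-467b-5p each ended without 1 or another single library. The count of falls was 1 without day 14 library 2, and 2 without day 7 library 2, without day 14 library 3, with DESeq2, with its size factors or with no filter. The miR-26 family, which is abundant in resting lymphocytes, had 0 of 3 tested members past the threshold, and its summed level was 32849 to 44870.2 CPM at day 7 and 38436 to 44176 CPM at day 14. Of the imprinted Dlk1-Dio3 cluster 1 of 31 members was tested, miR-127-3p. It fell (log2 change -1.30), but the call ended with DESeq2 (adjusted p = 0.0531) and without day 7 library 1 (edgeR adjusted p = 0.0727) or day 14 library 1 (0.0809) or 2 (0.0983).

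The 2 arms of a hairpin were compared in 73 pairs of single-locus miRNAs with a RefSeq entry. The major arm is that with the higher mean level over both days. The changes had the same sign in 49 pairs. In 22 pairs both arms passed, 20 of them in the same direction, and in 15 of these 20 the minor arm had the larger change. Over these 20 pairs the median size of the log2 change was 0.91 for the major and 1.45 for the minor arm. Minor arms have fewer counts, and the part of depth in the difference was not tested. The 2 pairs with opposite directions were miR-18a (miR-18a-5p -0.75, miR-18a-3p 0.57) and miR-671, in an exon of Chpf2 (miR-671-3p 0.71, miR-671-5p -1.24). In both pairs the call of the rising arm ended with STD scaling (edgeR adjusted p = 0.259 for miR-18a-3p and 0.137 for miR-671-3p). miR-361, in an intron of Chm, rose in both arms, miR-361-3p from 3611 ± 214 to 7851 ± 919 CPM (log2 change 1.12) and miR-361-5p from 7782 ± 505 to 9765 ± 242 CPM (0.33). The call of the latter ended with library size or STD scaling and without day 7 library 3 (edgeR adjusted p = 0.0728) or 4 (0.0945) or day 14 library 2 (0.0816). miR-21a, among the most abundant in T cells, rose in its passenger arm (miR-21a-3p, 0.87) while miR-21a-5p, at 24046 ± 1757 and 28349 ± 3303 CPM, did not pass (0.24). The call of miR-21a-3p ended with STD scaling (edgeR adjusted p = 0.128). miR-21a-5p passed as higher with DESeq2, with its size factors or with the compared groups alone.

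**Figure D4:**
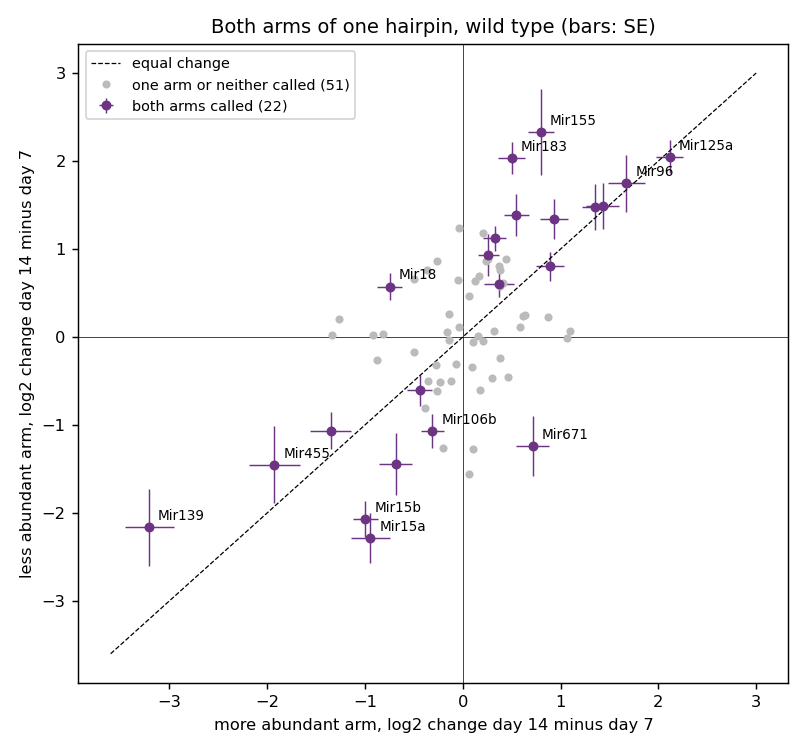
Log2 change from day 7 to day 14 of the minor arm against that of the major arm for the 73 hairpins compared, with the diagonal of equal change. The 22 hairpins with both arms past the threshold are marked, and 20 of them lie in the quadrants of equal sign.

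Over all miRNAs tested, 25.1% rose and 24.9% fell. Of the 12 core T cell miRNAs, 3 rose (miR-155-5p, miR-24-3p and miR-27a-3p), 2 fell (miR-150-5p and miR-181a-5p) and 7 did not pass, with a median log2 change of -0.05. Among the latter, miR-142a-3p stood at 2469 ± 693 and 2570.5 ± 607 CPM (log2 change 0.06), miR-142a-5p at 7545 ± 808 and 6771 ± 446 CPM (-0.16), and miR-29a-3p at 6073 ± 582 and 5059.6 ± 617 CPM (-0.26). Of the miRNAs listed as induced by T cell activation, the rises included the 3 guides of the miR-183 cluster, miR-155 and miR-31-5p, the falls miR-18a-5p, miR-19b-3p (-0.65) and miR-7a-5p (-0.80). The call of miR-7a-5p ended without day 14 library 2 (edgeR adjusted p = 0.0649). Of 15 tested miRNAs listed as regulators of Th2 responses, 7 rose, 1 fell and 7 did not pass, with a median of 0.24. With library size 4 of them rose (median 0.09), with STD scaling 3 (0.04), with no filter 4 and without day 14 library 2 also 4. miR-210-3p, induced by low oxygen, did not pass (1482, 2666, 2678 and 2873 CPM and then 3128, 2391 and 2864 CPM, log2 change 0.20), and day 7 library 1 was the lowest of its group.

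Some miRNAs that are typical of other cell types fell. miR-122-5p, the main miRNA of hepatocytes, stood at 902, 818, 642 and 495 CPM at day 7 and 45.1, 41.7 and 24.8 CPM at day 14. It was 255 ± 21.4 CPM in naive cells (SD, n = 4), and the 18.9-fold fall, without overlap, was the largest of all (log2 change -4.24, SE 0.27, edgeR adjusted p = 4.08e-13). miR-143-3p, typical of smooth muscle and stroma, stood at 163, 179, 81.3 and 121 CPM and then at 3.47, 7.58 and 21.3 CPM (log2 change -3.57, SE 0.59, edgeR adjusted p = 1.07e-05). miR-192-5p, typical of liver and gut, stood at 6325, 6076, 6133 and 6206 CPM and then 3634, 3528 and 2810.3 CPM (log2 change -0.90, SE 0.15, edgeR adjusted p = 1.13e-05). These miRNAs had no overlap between the days. Over all miRNAs tested, 24.9% fell. In the list of epithelial, liver and muscle miRNAs, 9 of 14 members were tested, 7 fell, 2 did not pass and the median log2 change was -0.97. Their summed level was 8029 to 8404 CPM at day 7 and 3669 to 4419 CPM at day 14, and miR-133a-3p was at 0 at both times. miR-203-3p (-1.83), miR-141-3p (-1.23), miR-200a-3p (-1.15), miR-194-5p (-0.82) and miR-200c-3p (-0.57) were among those that fell.

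Of the endothelial and stromal list 3 of 9 members were tested and 2 fell, miR-143-3p and miR-126a-5p (-0.85), while miR-126a-3p (-0.34) did not pass. The summed level of that list was 889 to 1066 CPM at day 7 and 534 to 694 CPM at day 14. Of the red cell and platelet list 2 of 6 were tested and both rose. These were miR-486a-5p (83.2 ± 17.6 to 184 ± 34.5 CPM, log2 change 1.12) and miR-486b-5p, which can share reads, while the defining miR-451a was at 0 at both times. The summed level was 133.6 to 211 CPM at day 7 and 302 to 426 CPM at day 14. No miRNA of the myeloid list was tested, and its summed level was 0 to 3.10 CPM at day 7 and 0 to 3.79 CPM at day 14. The part of other cells in any of these changes was not tested.

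To show where the wild-type time course differed from that of AGO134KO cells, the change in knockout cells was set against the change in wild-type cells within the same fit. In knockout cells 171 miRNAs (44.8%) passed between day 7 and day 14. Of the 96 miRNAs that rose in wild type, 58 also rose and 4 fell in the knockout. Of the 95 that fell in wild type, 63 also fell and 0 rose. The difference of the changes itself passed for 46 miRNAs (12%), with 21 positive (5.5%) and 25 negative (6.54%), a negative value meaning a more negative change in the knockout. With library size as the scaling the split was 24 positive and 14 negative, and the median difference of all miRNAs moved from -0.03 to 0.11. With STD scaling 15 passed (7 positive, 8 negative) with a median of 0.14, and without wild-type day 14 library 3 the count was 30. These differences use the same wild-type libraries as the changes above.

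Several miRNAs that rose in wild type had a lower change in the knockout, by the test of the difference. miR-10a-5p, which rose by 3.41 on the log2 scale in wild type, had a change of 0.76 in the knockout (difference -2.64, SE 0.45, edgeR adjusted p = 1.52e-04), and miR-152-3p had 4.05 and 1.59 (difference -2.45, SE 0.48, edgeR adjusted p = 7.35e-04). In the knockout miR-10a-5p stood at 153, 151.8, 192 and 285 CPM at day 7 and 223, 398 and 352 CPM at day 14, and all 3 day 14 values were under those of wild type. miR-212-5p rose in wild type (1.09) and fell in the knockout (-1.66; difference -2.76, SE 0.28, edgeR adjusted p = 6.45e-08), and miR-132-5p went the same way (0.88 and -1.07; difference -1.95, SE 0.31, edgeR adjusted p = 7.11e-05). miR-212-3p, which did not pass in wild type (0.07), changed by -2.25 in the knockout (difference -2.32, SE 0.36, edgeR adjusted p = 7.11e-05). miR-146b-5p changed by 1.49 and -0.13 (difference -1.62, SE 0.26, edgeR adjusted p = 7.11e-05). In the other direction, miR-181b-5p fell less in the knockout (-2.32 and -1.03; difference 1.29, SE 0.21, edgeR adjusted p = 7.11e-05), as did miR-15b-3p (-2.07 and -0.68; difference 1.38, SE 0.28, edgeR adjusted p = 8.16e-04). The call for miR-15b-3p ended with STD scaling, at adjusted p = 0.0548. miR-222-3p and miR-221-3p, which target the cell cycle inhibitor p27, did not pass in wild type (-0.13 and -0.36) and had changes of 1.39 and 1.02 in the knockout (differences 1.52 and 1.38).

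**Figure D5:**
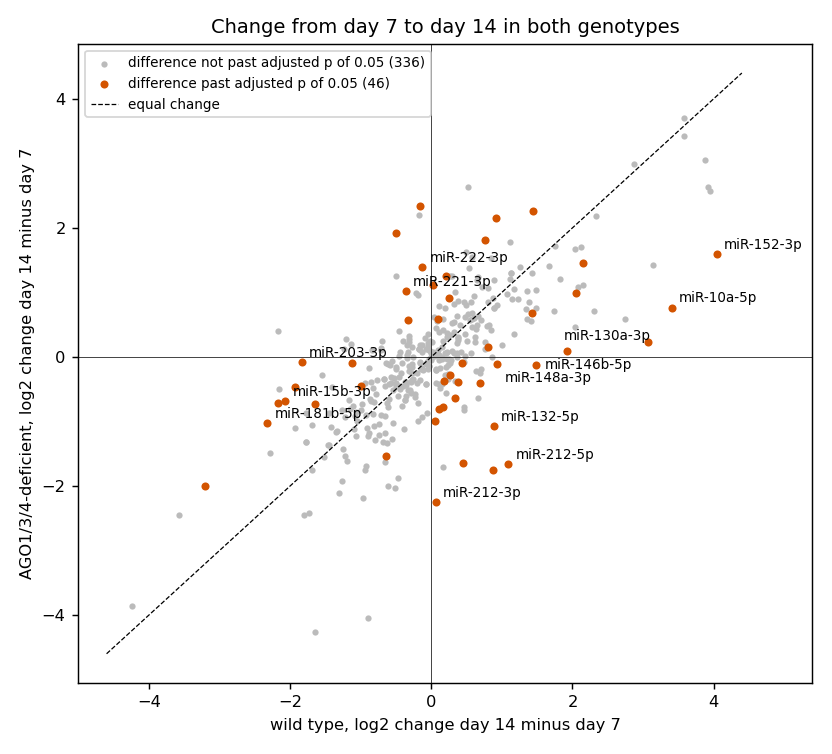
Log2 change from day 7 to day 14 in AGO134KO against wild-type Th2 cells, 1 point for each of the 382 miRNAs tested, with the diagonal of equal change. Coloured points are the 46 miRNAs whose difference of changes passed, 21 above and 25 below the diagonal.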

How the data were processed

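Small RNA libraries from total RNA of mouse CD4 T cells were made with an Illumina TruSeq kit, per the labels' protocols, which give single-end reads where the series text gives paired-end. The authors deposited whole-number counts per mature miRNA locus, not normalized, per the file headers. The submitters' processing notes name GRCm38. Not given in the sources used here are the aligner, the counting tool, and any use of strand or of molecular identifiers. Each library had 2119 entries, of which 9 named STD (40.7% to 44.1% of counts in the 7 libraries compared) name no miRNA and entered neither library sizes nor tests. For the 82 names with several loci the entry with the highest total over all libraries was used, which gave 1966 names.

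edgeR 4.0.16 (R 4.3.3) fitted the counts and its quasi-likelihood test was used, with TMM and filterByExpr at 10 counts, on the 22 libraries and 6 groups of the AGO1/3/4 experiment, so that all groups share the spread. P-values were adjusted over all 382 miRNAs by Benjamini-Hochberg and called under 0.05, with no minimum fold. The SE of a log2 change is the change divided by the square root of the F statistic. The difference between genotypes was an interaction contrast. Fits were tested on simulated data. The filter removed 1584 names, 677 of them with a count in the 7 libraries. Replicates of a day differed by more than sampling noise (chi-square per degree of freedom of 2.845 or more). The floor of 3 counts covers counting error only.

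Named miRNAs were the 12 largest rises and 12 largest falls among called miRNAs at 50 CPM or more on 1 of the days, the 8 most abundant called, the core set, up to 4 called members of each list by adjusted p, and for the genotype difference the 4 with the smallest p each way. The remaining family members, arms and markers were named after their values were seen. Members and lists were chosen with earlier results of these data known. Host genes are from GENCODE M21 and sequences from RefSeq (GRCm38.p6). Alternatives were DESeq2 1.42.0 size factors and Wald test, library size or STD scaling, no filter, the compared groups alone, a replicate block and leaving out each library.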

Additional observations from a re-analysis of the deposited data

Results flagged for a closer look

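Among the 140 named miRNAs examined in the 4 day 7 libraries, 6 had 1 library far from the other 3 by Dixon's test, and chance gives about 1 in 20. Day 7 library 1 was the highest for miR-182-5p (24447 CPM), miR-16-5p (25583 CPM) and miR-99a-5p (154 CPM) and the lowest for miR-191-3p (451 CPM) and miR-210-3p (1482 CPM). Day 7 library 2 was the lowest for miR-222-3p (389.9 CPM). Groups of 3 libraries were not examined in this way.

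The change from day 7 to day 14 differed between AGO134KO and wild-type cells for 31 named miRNAs by the interaction test (edgeR adjusted p under 0.05). Differences of the log2 changes, knockout minus wild type, were negative for miR-212-5p (-2.76), miR-10a-5p (-2.64), miR-152-3p (-2.45), miR-212-3p (-2.32), miR-132-3p (-2.08), miR-132-5p (-1.95), miR-130a-3p (-1.83), miR-146b-5p (-1.62), miR-425-3p (-1.10), miR-125a-3p (-1.06), miR-142a-3p (-1.04), miR-148a-3p (-1.04), miR-301b-3p (-0.89), miR-27a-3p (-0.76), miR-99b-5p (-0.74), miR-92b-3p (-0.70), miR-155-5p (-0.64), miR-23a-3p (-0.54) and miR-23b-3p (-0.53). They were positive for miR-203-3p (1.75), miR-222-3p (1.52), miR-455-3p (1.47), miR-874-3p (1.45), miR-15b-3p (1.38), miR-221-3p (1.38), miR-181b-5p (1.29), miR-139-5p (1.20), miR-221-5p (1.05), miR-181a-5p (0.93), miR-31-5p (0.82) and miR-15b-5p (0.55).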

How the results depend on the processing

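The count of 191 changed miRNAs lay between 141 and 207 under the 14 alternatives, with 165 to 189 when each library was left out in turn (85 to 98 higher, 80 to 93 lower). Of these calls 178 were shared with DESeq2 size factors, 170 with library size and 138 with STD scaling, which gave 52 higher against 96. The number of differences between genotypes went from 46 to 15 with STD scaling (7 positive, 8 negative), the negative ones from 25 to 14 with library size, and leaving out each library gave 30 to 51 (16 to 29 positive, 14 to 25 negative). The cause of these shifts was not tested. Of 122 named miRNAs that changed, 83 passed under every alternative that tested them, 39 lost their call under at least 1, and 0 changed sign. Not every alternative tested every named miRNA. Signs turned for 4 that had not passed. miR-146a-5p was at -0.081 with library size and -0.13 with STD scaling (-0.004 to 0.10 with a library left out), miR-142a-3p at -0.10 and -0.15 (-0.14 to 0.19), and miR-212-3p at -0.081 and -0.13 (-0.22 to 0.24), while miR-222-3p ran from -0.42 to 0.046 with a library left out. Same-numbered libraries of the 2 days had correlations of -0.09, 0.24 and 0.18 between their deviations from the group means over 268 miRNAs, and not every library correlated best with its own number. The numbers were therefore not taken to pair the samples, and with the replicate number as a block 181 miRNAs passed (91 higher, 90 lower), 176 of them shared, and 44 differences between genotypes (21 positive, 23 negative). Depth limits miRNAs near the floor of 3 counts, whose day 7 levels and folds are uncertain.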
